A study of Homo sapiens with 6 samples.

Results

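A list of 36 genes of the integrated stress response and of amino acid supply was followed through 6 RNA-seq libraries of THP-1 cells. A listed gene was a member if its name had a value in each of the 6 libraries, which held for all 36 listed genes, out of 17388 genes with 6 values. All 36 also passed the filter on low levels, which left 13502 genes for testing; for 17 of them no level could be recovered from the files, and such genes were treated as high. By role, 7 were regulators, 6 were genes of growth control and other targets, 7 were serine and folate enzymes, 8 were other amino acid and tRNA genes, and 8 were transporters.

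In the integrated stress response, kinases that sense amino acid shortage, unfolded protein in the endoplasmic reticulum, haem shortage or double-stranded RNA phosphorylate the translation initiation factor eIF2. Protein synthesis then falls in general while translation of the transcription factor ATF4 increases, and ATF4 with its partner proteins switches on genes that make, import and load amino acids onto tRNA. Much of the activity of ATF4 is set at translation, so its mRNA shows only a part of it.

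THP-1 is an established human monocytic leukaemia line, used as a model of monocytes, and interleukin-6 (IL-6) is a cytokine whose receptor activates the transcription factor STAT3. Cells labelled as controls and cells given recombinant human IL-6 were collected after 6, 24 and 48 h, and each of these 6 conditions has 1 library. According to the series' design text, the aim was to find the changes in expression that IL-6 drives in these cells. All groups were the same line with no other agent named, and neither the IL-6 concentration nor what the controls received is given in the labels.

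The values are the authors' log2 values with the mean of every gene over the libraries set to 0. A value therefore says how far a library lies from the gene's own mean, not how strongly the gene is expressed, and a difference of 1 is a 2-fold difference. The depth in reads is unknown, and 22000 to 23108 genes had a value in each library. Of 10 IL-6 response genes, 3 rose with IL-6 (PIM1, BCL3 and STAT3), 0 fell and 8 had an estimate above 0. Among all genes tested 0.259% rose, 0.00741% fell and 44% had an estimate above 0. The list was chosen with earlier results of these data known, so it is no independent check of the labels. PIM1, a kinase gene switched on by STAT3, rose by 2.67 ± 0.18 (limma SE, 3 pairs, adjusted p = 0.000194), while IRF1 and FGL2 stood at -0.06 ± 0.15 and -0.27 ± 0.27. All 14 monocyte markers were tested, whereas enough signal to be tested was found for 1 of 9 markers of T or NK cells, 2 of 5 of B cells, 1 of 7 of red cells or platelets and 1 of 9 of epithelium or fibroblasts. CD3D, CD3E, HBB, PPBP, EPCAM and COL1A1, defining markers of other cell types, lacked a value in at least 1 library. In bulk RNA, fewer cells of a type and less RNA per cell cannot be told apart.

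Most of these genes rose with time in culture in both arms, and their values were mostly higher with IL-6 at 24 and 48 h. From 6 to 48 h, 27 of the 36 members rose over both arms and 0 fell by limma with Benjamini-Hochberg adjustment over all genes tested (adjusted p under 0.05). Among all genes tested 2.56% rose and 1.47% fell in that comparison. The members were chosen with earlier results of these data known, so the contrast with all genes is no independent test. The median difference was 1.14, or 2.20-fold, over the members and 0.07 over all genes tested. Each time point had 1 control and 1 IL-6 library, so every time contrast rests on 2 libraries against 2. Without the IL-6 library of 48 h the count was 16, with the calls of ATF5, STC2, VLDLR, PSPH, ALDH1L2, ASNS, CBS, GPT2, PYCR1, XPOT, SLC1A4 and SLC38A1 lost. Without the IL-6 library of 6 h it was 18, with ATF5, VLDLR, PSPH, MTHFD2, ALDH1L2, PYCR1, XPOT, SLC1A4, SLC1A5 and SLC38A1 lost, and without the control of 6 h PYCR1 and SLC38A1 were lost. With no variance trend in the model, 0 of the 13502 genes passed in any comparison, and 32 members were higher at 48 h than at 6 h at an unadjusted p under 0.05, as were 11.5% of all genes in that fit.

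With IL-6, 1 member passed the threshold over the 3 time-matched pairs. This was CHAC1, which encodes an enzyme that degrades glutathione and is a known ATF4 target. No member was lower, and among all genes tested 0.259% were higher and 0.00741% lower. The estimate was above 0 in 32 members, as it was for 44% of all genes tested, and the members' median was 0.36 against -0.03. At an unadjusted p under 0.05 by limma, 21 members were higher (3.72% of all genes) and 1, SLC1A4, was lower (5.33%). That count of higher members was 23 with equal library medians (4.73% of all genes) and 16 with quantile normalization (4.32%). It was 11 with no variance trend (3.39%) and 3 with no time term (1.61%). The lower members in these 4 fits were 1, 2, 1 and 0. With quantile normalization the members' median was 0.23. There the 17 members with no recovered level, among them PHGDH, PCK2 and DDIT4, entered at 1 assigned level. Without the pair of 6 h, 7 members passed, namely ATF5, NUPR1, TRIB3, CHAC1, STC2, PSAT1 and ASNS. In that fit, with 1 residual degree of freedom, 88 of the 13502 genes passed as higher and 36 as lower, against 35 and 1 with all pairs. Without the pair of 24 h 0 members passed (15 genes higher and 2 lower), and without that of 48 h 0 members did (30 and 6). The labels do not say whether separate cultures were used for the pairs, and the p-values then cover no more than the spread between these libraries.

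**Figure D1:**
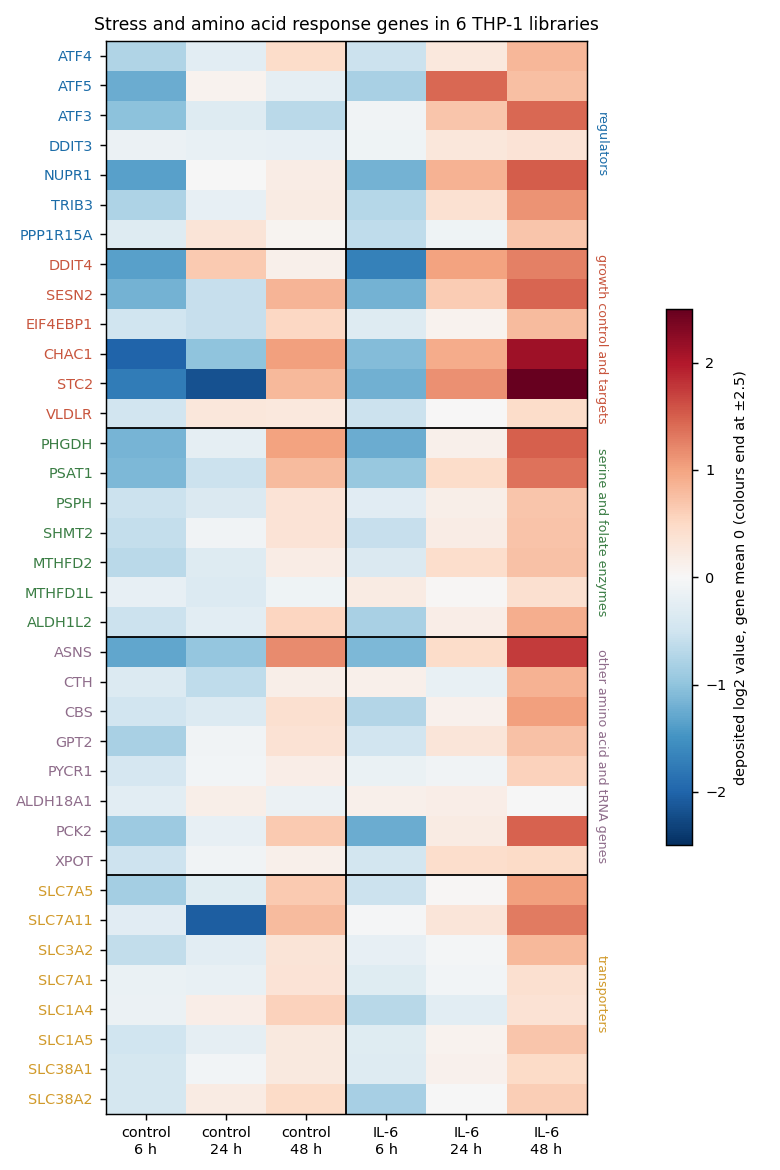
Deposited log2 value (colour, gene mean 0, colours end at ±2.5) of each of the 36 genes (rows, grouped by role) in the 6 libraries (columns, 3 control and 3 IL-6). The 6 h columns are blue in most rows, and the IL-6 column of 48 h holds the highest value in 33 of 36 rows.

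For most members the estimate over time was larger in size than the IL-6 estimate, a difference that was not tested for single genes. The absolute estimate for 48 h minus 6 h exceeded the absolute IL-6 estimate in 32 of 36 members, against 67.1% of all genes tested. The exceptions were ATF3, DDIT3, MTHFD1L and ALDH18A1. In the control arm alone, 28 members were at least 1.5-fold higher at 48 h than at 6 h (15.7% of all genes), and in the IL-6 arm 33 were (18.5%). These are ratios of 1 library to 1 and have no test. The library of IL-6 at 48 h was the highest of the 6 for 33 members (17.3% of all genes), the exceptions being ATF5, ALDH18A1 and SLC1A4.

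**Figure D2:**
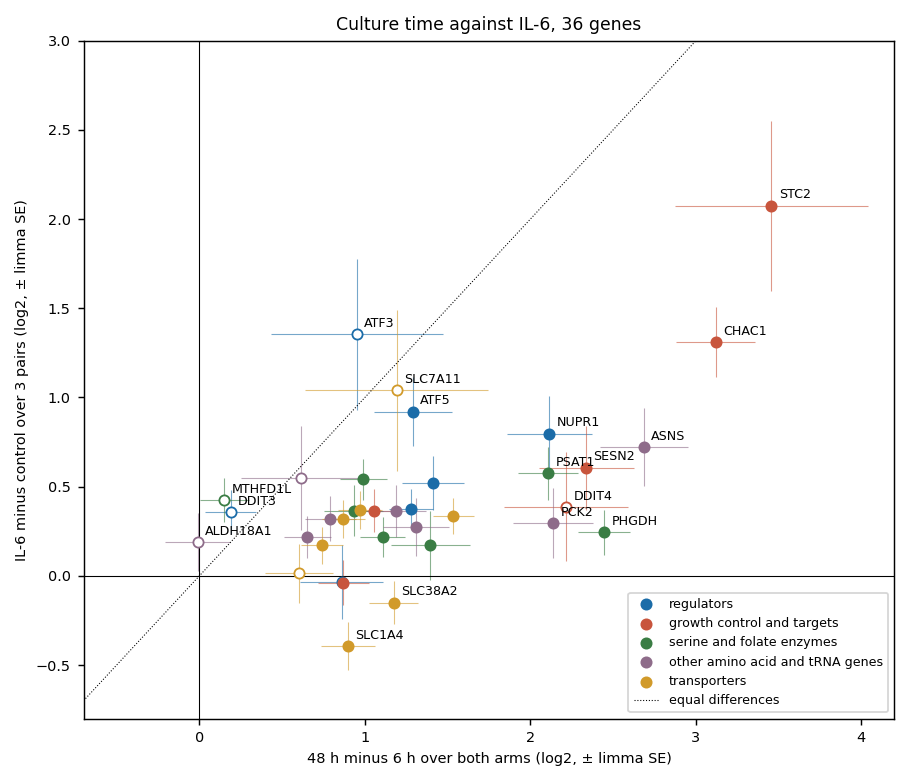
Estimate for 48 h minus 6 h over both arms (x axis, log2) against IL-6 minus control over 3 pairs (y axis, log2) for 36 genes coloured by role, with limma SEs as bars; filled points passed the threshold for 48 h minus 6 h and the dotted line marks equal differences. The 27 filled points lie right of 0 and most points lie below the dotted line, while ATF3, DDIT3, MTHFD1L and ALDH18A1 lie above it.

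At 24 h the IL-6 library lay between the control libraries of 24 and 48 h for 20 members (10.9% of all genes tested), and for 11, among them ATF5, ATF3, DDIT3, NUPR1 and TRIB3 of the regulators, it lay above the control of 48 h (48.1%). The rise from 6 to 24 h was larger in the IL-6 arm than in the control arm for 29 members (42.8% of all genes), and the rise from 6 to 48 h for 35 (45.8%). The order 6 h below 24 h below 48 h held in the control arm for 23 members (20.9%), in the IL-6 arm for 32 (23%), and in both arms for 23 (7.44%). These counts share libraries, since each rise within an arm starts from the same 6 h library.

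Short stretches of DNA show where the letters of a known ATF4 binding sequence stand near the starts of the genes described in full. The C/EBP-ATF response element, which ATF4 binds together with a C/EBP partner, was searched as TGATGNAA on both strands in the windows from 250 bases before to 50 bases after each RefSeq start (GRCh38.p14), of which 35116 were searched. It was found in 3.62% of all windows and in 4.46% of the 27305 genes with a window. A window was given for 28 of the 36 members, and 9 of the 28 held a match, in 11 of their 47 windows. ASNS, ATF3 and CHAC1 are the 3 of these 9 that also have their values in full here, and their sites follow 5′ to 3′ along the gene's strand with the matched letters in capitals.
ASNS: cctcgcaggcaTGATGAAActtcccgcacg
ATF3: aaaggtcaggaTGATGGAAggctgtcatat
CHAC1: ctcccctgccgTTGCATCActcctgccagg
The ASNS stretch is at chr7:97872458-97872487 on the minus strand, with its match 68 bases before the start. The ATF3 stretch is at chr1:212565205-212565234 on the plus strand, 191 bases before the start. The CHAC1 stretch is at chr15:40953251-40953280 on the plus strand, 209 bases before the start, and reads the element in reverse complement. In the GENCODE annotation the ASNS and CHAC1 stretches lie in an exon of a transcript of the same gene that starts further upstream, and the ATF3 stretch lies in none.

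The other 6 members with a match were MTHFD1L, SLC1A4, SLC1A5, SLC38A1, SLC3A2 and SLC7A1. The match is a description of letters and not of binding. The median for 48 h minus 6 h was 0.90 over the 9 members with a match and 1.29 over the 19 with a window and no match, and the IL-6 medians were 0.37 and 0.36. Of the other sequences searched on both strands, the E-box CACGTG stood in windows of 5 of the 28 members (8.77% of all genes with a window) and the antioxidant element core TGACNNNGC in 11 (16.1%). The STAT palindrome TTCNNNGAA was found in 2 members (9.38%), and the cAMP element TGACGTCA in 1 member, PPP1R15A (2.25%). No member window held the endoplasmic reticulum stress element, CCAAT followed after 9 bases of any kind by CCACG (0.0916%). In the members' windows 0 pairs of matches to different sequences shared letters.

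Among the 7 regulators, ATF4, ATF5, NUPR1 and TRIB3 rose from 6 to 48 h, while ATF3 and DDIT3 passed in neither comparison and had a larger estimate for IL-6 than for 48 h minus 6 h, a difference that was not tested. At 6, 24 and 48 h the regulators' median IL-6 difference was 0.17, 0.58 and 0.92, and that of all genes tested 0.02, -0.07 and -0.04. ATF4 (ENSG00000128272.18, chr22:39519695-39522683), the central transcription factor of the response, stood at -0.75, -0.27 and 0.46 in the controls of 6, 24 and 48 h and at -0.53, 0.27 and 0.82 in the IL-6 libraries of the same times. Each arm increased at both steps, and the IL-6 library was the higher of each pair. ATF4 rose by 1.28 ± 0.13 from 6 to 48 h (limma adjusted p = 0.00191) and by 0.64 ± 0.13 from 6 to 24 h (adjusted p = 0.0416). Its IL-6 estimate of 0.38 ± 0.11 did not pass (adjusted p = 0.302, higher in 3 of 3 pairs). The 24 h call was lost when any 1 of the libraries of 6 or 24 h was left out, with limma adjusted p-values of 0.0978 to 0.421, with equal library medians (adjusted p = 0.0853) and with quantile normalization (0.084).

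ATF5 (ENSG00000169136.13, chr19:49928702-49933935) encodes a transcription factor related to ATF4 that is known for mitochondrial stress. Its values were -1.24, 0.09 and -0.22 in the controls and -0.80, 1.43 and 0.76 with IL-6, so it peaked at 24 h in both arms. It rose by 1.78 ± 0.24 from 6 to 24 h (limma adjusted p = 0.00573) and by 1.29 ± 0.24 from 6 to 48 h (adjusted p = 0.0172). The first call was lost without the IL-6 library of 24 h (adjusted p = 0.0679), the second without the IL-6 library of 6 h (0.182) or of 48 h (0.138). The IL-6 estimate was 0.92 ± 0.19 (adjusted p = 0.137), with pair differences of 0.44, 1.34 and 0.98. The ATF5 locus overlaps IL4I1 and NUP62 on the opposite strand, and IL4I1 had IL-6 differences of 0.09, 0.96 and 1.93. As the library kit does not mark the strand, reads of the overlapping stretches cannot be told apart, and how far exons overlap was not determined. The same limit holds for DDIT3, VLDLR, SHMT2, MTHFD2, ALDH1L2, PYCR1, PCK2, SLC1A4 and SLC1A5, which overlap a gene on the opposite strand, and for NUPR1, MTHFD1L and ASNS, which overlap 1 on the same strand.

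NUPR1 (ENSG00000176046.9, chr16:28532708-28539008), a small stress-induced chromatin regulator, stood at -1.36, -0.02 and 0.18 in the controls and at -1.19, 0.87 and 1.51 with IL-6. Both 6 h libraries were far below the 4 later ones, and the IL-6 libraries of 24 and 48 h were the highest. It rose by 1.70 ± 0.26 from 6 to 24 h (limma adjusted p = 0.0108) and by 2.11 ± 0.26, or 4.33-fold, from 6 to 48 h (adjusted p = 0.00318). Leaving out the control or the IL-6 library of 24 h ended the 24 h call (adjusted p = 0.161 and 0.165). The IL-6 differences of 0.17, 0.89 and 1.33 gave an estimate of 0.80 ± 0.21 (adjusted p = 0.251). The gene that NUPR1 overlaps on its own strand, ENSG00000288656, had IL-6 differences of -0.16, 1.19 and 0.73.

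ATF3 (ENSG00000162772.17, chr1:212565334-212620777), an early stress-induced repressor, was at -1.03, -0.33 and -0.67 in the controls and at -0.10, 0.68 and 1.44 with IL-6. All 3 IL-6 libraries lay above all 3 controls, which also held for DDIT3 and MTHFD1L and for 3.51% of all genes tested. The pair differences of 0.94, 1.01 and 2.11 gave the second largest IL-6 estimate of the group, 1.35 ± 0.42, which did not pass (limma adjusted p = 0.351). ATF3 had a low level, between 0.66 and 3.92 in the arbitrary unit recovered from the files, for which it is not given whether it is per length. It was 1 of 4 members with a mean level under 5, with STC2, CTH and SLC7A11, and it did not pass for 48 h minus 6 h either (0.95 ± 0.52, adjusted p = 0.321).

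DDIT3, which encodes the pro-apoptotic factor CHOP, differed little between control times, with values from -0.21 to -0.14, and reached 0.29 and 0.35 with IL-6 at 24 and 48 h. Its estimates were 0.36 ± 0.12 for IL-6 (limma adjusted p = 0.395) and 0.19 ± 0.15 for 48 h minus 6 h (adjusted p = 0.507). DDIT3 overlaps MARS1 and MBD6 on the opposite strand, and MARS1 had IL-6 differences of 0.06, 0.30 and 0.54 beside 0.04, 0.47 and 0.56 for DDIT3. TRIB3, a pseudokinase that feeds back on ATF4, rose by 1.41 ± 0.19 from 6 to 48 h (adjusted p = 0.00562), and its IL-6 differences were 0.05, 0.58 and 0.92. PPP1R15A, which encodes the GADD34 subunit that returns eIF2 to its unphosphorylated state, was lower with IL-6 at 6 and 24 h (-0.30 and -0.43) and higher at 48 h (0.63). Its increase from 6 to 48 h of 0.86 ± 0.25 did not pass (adjusted p = 0.0882).

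**Figure D3:**
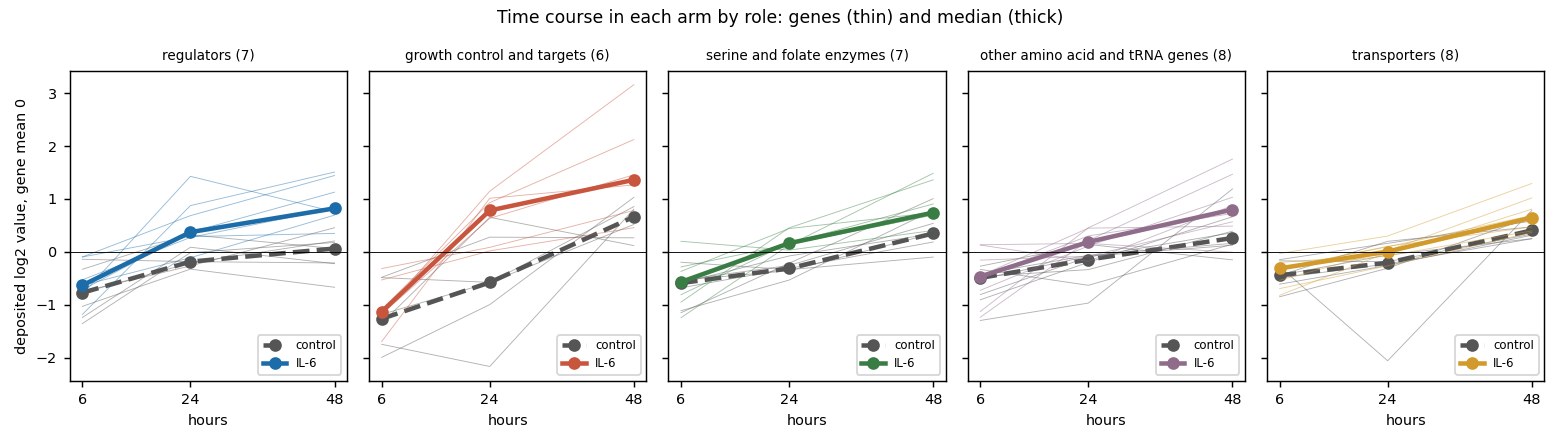
Deposited log2 value (y axis, gene mean 0) against hours in culture (x axis) in 5 panels by role, with thin lines for single genes, thick lines with points for the median of the role, and dashed grey for controls. The medians of both arms start close together at 6 h and climb in every panel, with the IL-6 median above the control median at 24 and 48 h.

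The 6 genes of growth control and other targets held the largest changes, with a median of 2.28 from 6 to 48 h and 5 of 6 past the threshold. Their median IL-6 differences at 6, 24 and 48 h were 0.09, 0.94 and 0.85. CHAC1 (ENSG00000128965.13, chr15:40952962-40956512) was at -1.997, -0.999 and 1.03 in the controls and at -1.09, 0.93 and 2.12 with IL-6. It increased at each step in both arms, and the IL-6 library was at least 1.5-fold higher than its control at each time. CHAC1 rose with IL-6 by 1.31 ± 0.20, or 2.48-fold (limma adjusted p = 0.0267, pair SD 0.54), and from 6 to 48 h by 3.12 ± 0.24, or 8.69-fold (adjusted p = 0.000501). It also rose from 6 to 24 h (1.51 ± 0.24, adjusted p = 0.0138) and from 24 to 48 h (1.61 ± 0.24, adjusted p = 0.0211).

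The IL-6 call of CHAC1 was lost without the pair of 24 h (limma adjusted p = 0.105) and without that of 48 h (adjusted p = 0.0572). It was also lost with non-robust variance shrinkage (adjusted p = 0.0778), with no level filter (0.0767) and with no variance trend (0.551). The 24 h call was lost without the IL-6 library of 24 h (1.04, adjusted p = 0.091), and the call for 48 h minus 24 h without the control of 24 h (0.125), without the IL-6 library of 48 h (0.0582), with non-robust shrinkage (0.0567) and with no level filter (0.0601). The call for 48 h minus 6 h was lost by no left-out library.

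STC2 (ENSG00000113739.11, chr5:173314723-173328447), which encodes the secreted glycoprotein stanniocalcin, stood at -1.75, -2.17 and 0.81 in the controls and at -1.20, 1.15 and 3.16 with IL-6. The control of 24 h was the lowest library and the IL-6 library of 48 h the highest, and only in the IL-6 arm was 24 h above 6 h. STC2 rose by 3.46 ± 0.58, or 10.98-fold, from 6 to 48 h (limma adjusted p = 0.0172), a call lost without the IL-6 library of 48 h (adjusted p = 0.193). Its IL-6 estimate of 2.08 ± 0.48 was the largest of the group and did not pass (adjusted p = 0.209). The pair differences of 0.56, 3.32 and 2.35 had an SD of 1.40. Without the 6 h pair the estimate was 2.83, in a fit with 1 residual degree of freedom. The recovered level of STC2 ran from 0.30 to 13.5.

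SESN2 (ENSG00000130766.5, chr1:28259518-28282491) encodes a leucine sensor that restrains the growth kinase mTORC1. It was at -1.18, -0.58 and 0.86 in the controls and at -1.18, 0.63 and 1.46 with IL-6, so the arms had the same value to 2 decimals at 6 h and were 1.21 apart at 24 h. It rose by 2.34 ± 0.29 from 6 to 48 h (limma adjusted p = 0.0031), and its IL-6 estimate was 0.61 ± 0.24 (adjusted p = 0.464). DDIT4 (ENSG00000168209.6, chr10:72273919-72276036), which also restrains mTORC1, stood at -1.35, 0.65 and 0.12 in the controls and at -1.70, 1.01 and 1.27 with IL-6. Both 6 h libraries were far below the rest, and the IL-6 library was the lower at 6 h and the higher at 24 and 48 h. DDIT4 had the largest 24 h difference of the group, 2.36 ± 0.37, which did not pass (adjusted p = 0.0755), nor did 48 h (2.22 ± 0.37, adjusted p = 0.0611). Without the control of 6 h the estimates were 2.91 for 24 h and 2.77 for 48 h, and without the IL-6 library of 6 h 1.81 and 1.67. Both differences passed with non-robust shrinkage (limma adjusted p = 0.015 and 0.0137), with no level filter (0.0469 and 0.0422) and with quantile normalization (0.00212 and 0.00229). Neither passed with equal library medians (0.0999 and 0.0752), with a mean level of at least 5 (0.0881 and 0.0718) or with no variance trend (0.207 and 0.205).

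EIF4EBP1, an inhibitor of cap-dependent translation, rose by 1.05 ± 0.15 from 6 to 48 h (limma adjusted p = 0.00615) and by 0.90 ± 0.15 from 24 to 48 h (adjusted p = 0.0319). Its IL-6 difference was largest at 24 h, at 0.66. VLDLR, a lipoprotein receptor gene known as an ATF4 target, rose by 0.87 ± 0.15 from 6 to 48 h (adjusted p = 0.0158), while its IL-6 estimate was -0.04 ± 0.13. It overlaps VLDLR-AS1 on the opposite strand.

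Of the 7 serine and folate enzymes, 6 rose from 6 to 48 h. The IL-6 estimate was above 0 in 7 but passed in 0 by limma, and 4 were higher at an unadjusted p under 0.05 (3.72% of all genes). Over the 3 times their median IL-6 differences were 0.16, 0.42 and 0.48, and the median from 6 to 48 h was 0.93 in the control arm and 1.28 in the IL-6 arm. PHGDH (ENSG00000092621.13, chr1:119648411-119744218), the first enzyme of serine synthesis, stood at -1.15, -0.22 and 1.01 in the controls and at -1.25, 0.13 and 1.49 with IL-6. The arms were close at each time compared with the steps between times. PHGDH rose by 2.45 ± 0.16, or 5.45-fold, from 6 to 48 h (limma adjusted p = 0.000231), by 1.15 ± 0.16 from 6 to 24 h (adjusted p = 0.00581) and by 1.29 ± 0.16 from 24 to 48 h (adjusted p = 0.0125). Its 24 h call was lost without either library of 24 h (adjusted p = 0.0765 and 0.0803), and its IL-6 estimate was 0.24 ± 0.13 (adjusted p = 0.617), or -0.067 with quantile normalization.

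PSAT1 (ENSG00000135069.14, chr9:78297125-78330093), the second enzyme of serine synthesis, stood at -1.11, -0.53 and 0.79 in the controls and at -0.95, 0.45 and 1.36 with IL-6. Its IL-6 library of 24 h was 0.99 above the control, the largest IL-6 difference of a serine or folate enzyme at any time. PSAT1 rose by 2.11 ± 0.18 from 6 to 48 h (limma adjusted p = 0.000744) and by 0.99 ± 0.18 from 6 to 24 h (adjusted p = 0.0257). The 24 h call was lost without the IL-6 library of 6 h (adjusted p = 0.211) or of 24 h (0.198), with equal library medians (0.0612) and with quantile normalization (0.265). The IL-6 estimate was 0.58 ± 0.15 (adjusted p = 0.243). PSPH, which completes serine synthesis, rose from 6 to 48 h by 0.93 ± 0.18 (adjusted p = 0.0203).

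In the mitochondrial folate branch SHMT2, which moves a carbon from serine to folate, rose by 1.11 ± 0.14 from 6 to 48 h (limma adjusted p = 0.0031) and by 0.64 ± 0.14 from 6 to 24 h (adjusted p = 0.0464). The 24 h call of SHMT2 was lost without any 1 of the libraries of 6 or 24 h (limma adjusted p from 0.081 to 0.481), with equal library medians (0.0902), with non-robust shrinkage (0.073) and with no level filter (0.0849). MTHFD2, the next enzyme, rose by 0.99 ± 0.14 from 6 to 48 h (adjusted p = 0.00661), and its IL-6 estimate of 0.54 ± 0.12 had an unadjusted p of 0.000855 and an adjusted p of 0.151. ALDH1L2, which releases the carbon as CO2, rose by 1.40 ± 0.24 (adjusted p = 0.0129). MTHFD1L, which makes formate, was the exception, with 0.15 ± 0.15 from 6 to 48 h (adjusted p = 0.605) and similar IL-6 differences at each time, 0.40, 0.37 and 0.50 (estimate 0.42 ± 0.12, adjusted p = 0.302).

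Of the 8 other amino acid and tRNA genes, 6 rose from 6 to 48 h, and CTH and ALDH18A1 did not pass. ASNS (ENSG00000070669.17, chr7:97851677-97872542), the asparagine synthetase gene, was at -1.30, -0.97 and 1.19 in the controls and at -1.13, 0.45 and 1.75 with IL-6. The arms were 0.17 apart at 6 h and 1.42 apart at 24 h, and the control increased mainly between 24 and 48 h. ASNS rose by 2.69 ± 0.27, or 6.44-fold, from 6 to 48 h (limma adjusted p = 0.0031, or 0.0581 without the IL-6 library of 48 h) and by 1.73 ± 0.27 from 24 to 48 h (adjusted p = 0.0402). The latter call was lost without the control of 24 h (limma adjusted p = 0.0939), the control of 48 h (0.121) or the IL-6 library of 48 h (0.269), with equal library medians (0.0749) or quantile normalization (0.0785), with non-robust shrinkage (0.0567) and with no level filter (0.0601). Its difference from 6 to 24 h of 0.96 ± 0.27 did not pass (adjusted p = 0.117), nor did the IL-6 estimate of 0.72 ± 0.22 (adjusted p = 0.361). The overlapping ENSG00000284707, on the same strand, had IL-6 differences of 0.76, 1.51 and -0.29.

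PCK2 (ENSG00000100889.12, chr14:24094053-24110598), which encodes the mitochondrial enzyme that makes phosphoenolpyruvate, stood at -0.91, -0.20 and 0.66 in the controls and at -1.24, 0.21 and 1.47 with IL-6. The IL-6 library was the lower of the pair at 6 h and the higher at 24 and 48 h. PCK2 rose by 2.14 ± 0.24 from 6 to 48 h (limma adjusted p = 0.00661), and its IL-6 estimate was 0.30 ± 0.20 (adjusted p = 0.737), or -0.015 with quantile normalization. The whole PCK2 body overlaps NRL on the opposite strand, whose IL-6 differences were -0.41, -0.70 and 0.87. CTH (ENSG00000116761.12, chr1:70411218-70439851), which makes cysteine from cystathionine, was at -0.33, -0.63 and 0.15 in the controls and at 0.13, -0.18 and 0.87 with IL-6. Its lowest value in each arm was at 24 h, and its level was low, from 1.88 to 5.91. The estimates were 0.55 ± 0.29 for IL-6 (adjusted p = 0.624) and 0.61 ± 0.36 for 48 h minus 6 h (adjusted p = 0.354).

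CBS, which makes cystathionine, rose by 1.31 ± 0.20 from 6 to 48 h (limma adjusted p = 0.0107), and its reads may be split with the near-identical copy CBSL. GPT2, the mitochondrial alanine transaminase gene, rose by 1.19 ± 0.18 (adjusted p = 0.00763), and XPOT, which exports tRNA from the nucleus, by 0.79 ± 0.15 (adjusted p = 0.0222). Of the proline synthesis genes PYCR1, for the last enzyme, rose by 0.65 ± 0.14 (adjusted p = 0.0333, or 0.0568 with non-robust shrinkage and 0.0629 with no level filter), whereas ALDH18A1, for the first, stood at -0.01 ± 0.20 (adjusted p = 0.983). The difference between these enzymes was not tested.

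The 8 transporters had the smallest median IL-6 differences of the roles at 24 and 48 h, 0.19 and 0.29, while 6 of 8 rose from 6 to 48 h with a median of 0.93. SLC7A5, the large neutral amino acid exchanger, rose by 1.53 ± 0.12 from 6 to 48 h (limma adjusted p = 0.000501) and by 0.98 ± 0.12 from 24 to 48 h (adjusted p = 0.0172). Its IL-6 differences were nearly equal over time, 0.31, 0.33 and 0.36 (0.33 ± 0.10, adjusted p = 0.324). SLC3A2, the heavy chain that carries SLC7A5 and SLC7A11 to the membrane, rose by 0.97 ± 0.13 (adjusted p = 0.00542).

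SLC7A11 (ENSG00000151012.13, chr4:138164097-138242349), the cystine importer, was at -0.28, -2.06 and 0.78 in the controls and at -0.03, 0.30 and 1.29 with IL-6. The control of 24 h stood alone, at a recovered level of 0.40 against 1.43 to 4.57 in the other libraries. The IL-6 differences of 0.25, 2.36 and 0.51 gave an estimate of 1.04 ± 0.45 (limma adjusted p = 0.536). For 24 h minus 6 h the estimate was -0.73 ± 0.55 (adjusted p = 0.536), and 0.265 without the control of 24 h. From 6 to 48 h it was 1.19 ± 0.55 (adjusted p = 0.243).

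The neutral amino acid carriers of the SLC1A family had IL-6 differences of opposite sign. SLC1A4 was lower with IL-6 at all 3 times (-0.55, -0.42 and -0.22; estimate -0.40 ± 0.13, limma adjusted p = 0.391), the only member to be so (18.2% of all genes). LINC02245, which overlaps SLC1A4 on the opposite strand, had IL-6 differences of -1.03, -1.05 and 0.25. SLC1A5 was higher at all 3 (0.19, 0.32 and 0.44; 0.32 ± 0.11, adjusted p = 0.389). With time both rose, by 0.90 ± 0.16 and 0.87 ± 0.13 from 6 to 48 h (adjusted p = 0.0172 and 0.00773). The glutamine carriers SLC38A1 and SLC38A2 rose as well, by 0.74 ± 0.13 (adjusted p = 0.0126) and 1.17 ± 0.15 (adjusted p = 0.0035), and SLC38A2 was lower with IL-6 at 6 and 24 h (-0.38 and -0.21). SLC7A1, the arginine and lysine importer, did not pass (0.60 ± 0.20, adjusted p = 0.123), and its IL-6 estimate was 0.01 ± 0.17.

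**Figure D4:**
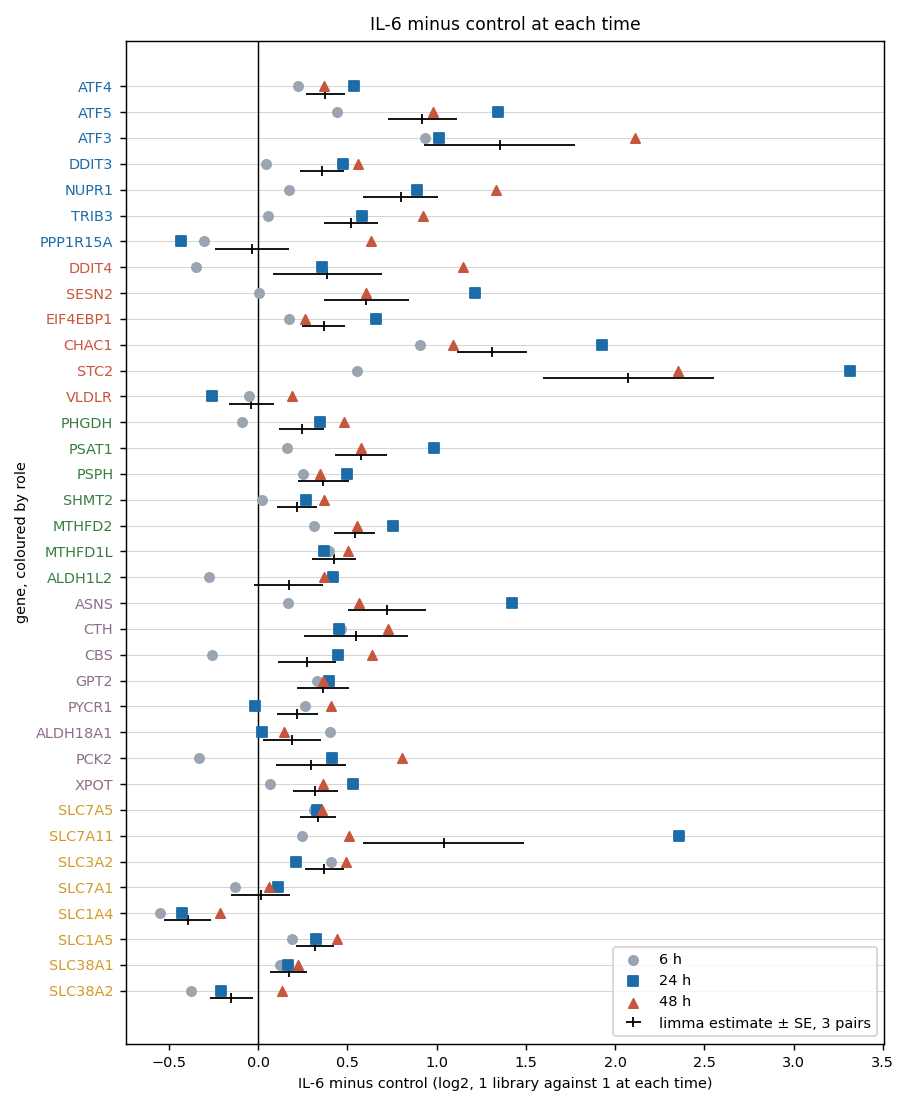
IL-6 minus control (x axis, log2) at 6, 24 and 48 h for each gene (rows, coloured by role), 1 library against 1 per point, with the limma estimate over 3 pairs and its SE as a black bar. STC2, SLC7A11, CHAC1 and ASNS are farthest right at 24 h, and the SLC1A4 points lie left of 0 at each time.

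The genes that passed differed in part between the steps from 6 to 24 h and from 24 to 48 h. The steps were not tested against each other. From 6 to 24 h, 8 members rose over both arms and 0 fell, where 1.73% of all genes rose and 0.296% fell. They were ATF4, ATF5, NUPR1, CHAC1, PHGDH, PSAT1, SHMT2 and SLC38A2 (0.73 ± 0.15, limma adjusted p = 0.0387). From 24 to 48 h, 6 rose and 0 fell, where 0.104% of all genes rose and 0.415% fell. These were EIF4EBP1, CHAC1, PHGDH, PSAT1 (1.11 ± 0.18, adjusted p = 0.0319), ASNS and SLC7A5. Within the arms, 12 members were at least 1.5-fold higher at 24 h than at 6 h in the controls (18.6% of all genes) and 20 with IL-6 (16%). With equal library medians these counts were 6 and 20, and the shares of all genes were not computed on that scale. On the deposited scale, 15 members were so at 48 h against 24 h in the controls (6.87% of all genes) and 22 with IL-6 (12.2%). The medians over both arms were 0.63 and 0.53 for the members, and those of all genes 0.11 and -0.03. The 24 h count was 0 without the IL-6 library of 24 h and 4 without the control of 24 h, and the count from 24 to 48 h was 0 without the control of 24 h and 2 without the IL-6 library of 24 h or of 48 h. The other left-out libraries moved the 24 h count to 5 (IL-6 of 6 h), 13 (control of 6 h) and 15 (either of 48 h). They moved that from 24 to 48 h to 11 (either of 6 h) and 10 (control of 48 h). The 24 h call of SLC38A2 was lost without either library of 24 h or the IL-6 library of 6 h (limma adjusted p from 0.181 to 0.383). From 24 to 48 h PSAT1 was lost without any 1 of the libraries of 24 or 48 h (0.0554 to 0.264), EIF4EBP1 without either of 24 h or the IL-6 library of 48 h (0.0521 to 0.232), and PHGDH and SLC7A5 without either of 24 h (0.0939 to 0.158). With non-robust shrinkage or with no level filter the 24 h calls of ATF4, PSAT1, SHMT2 and SLC38A2 were lost, as were those from 24 to 48 h of EIF4EBP1, CHAC1, PSAT1 and ASNS.

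Setting all libraries to equal medians moved the median of all genes for 24 h minus 6 h from 0.11 to 0.0072 and left 4 members past the threshold, ATF5, NUPR1, CHAC1 and PHGDH. Over all genes the split for 24 h minus 6 h then goes from 233 higher and 40 lower to 143 and 64. For 48 h minus 6 h it goes from 346 and 198 to 288 and 292, with 27 members higher as before. The members' median was then 0.53 for 24 h minus 6 h and 1.08 for 48 h minus 6 h.

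The members' median IL-6 difference was smaller at 6 h than at 24 and 48 h, in ratios of 1 library to 1. At 6 h 2 members were at least 1.5-fold higher with IL-6, ATF3 and CHAC1 (8.49% of all genes). At 24 h there were 11 (7.89%), at 48 h 12 (8.64%), and at no time was a member 1.5-fold lower (8.57%, 12.8% and 9.2% of all genes at the 3 times). The genes that were 1.5-fold higher at both 24 and 48 h were ATF5, ATF3, NUPR1, SESN2, CHAC1 and STC2 (2.09% of all genes). Over all members the median IL-6 differences of the 3 times were 0.17, 0.43 and 0.50. Of the 36 members, 25 were higher with IL-6 at all 3 times (12.6% of all genes) and 31 at both 24 and 48 h (20%).

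When the difference between the later IL-6 effect and that at 6 h was itself tested, with 1 residual degree of freedom, 0 members passed by limma, where 0.0741% of all genes passed as higher and 0.133% as lower. The estimate was above 0 in 33 members (42.3% of all genes), with a median of 0.36. At an unadjusted p under 0.05, 7 members had a larger later effect (1.88% of all genes) and 0 a smaller one (2.07%). These were NUPR1, TRIB3, DDIT4, STC2, ASNS, CBS and PCK2. STC2 had the largest difference, 2.28 ± 0.71, and DDIT4, CBS and PCK2 were lower with IL-6 at 6 h and higher afterwards.

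**Figure D5:**
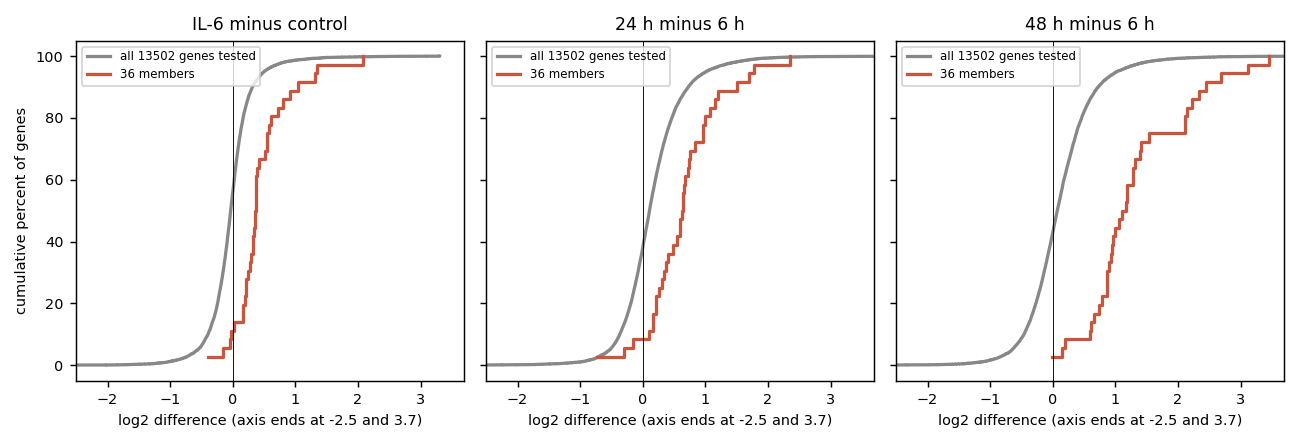
Cumulative percent of genes (y axis) at or below a log2 difference (x axis) for IL-6 minus control, 24 h minus 6 h and 48 h minus 6 h, with all 13502 genes tested in grey and the 36 genes in red. The red curve lies right of the grey one in each panel, with medians of 0.36, 0.63 and 1.14 against -0.03, 0.11 and 0.07. The 36 genes were chosen with earlier results of these data known.

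Genes of the same pathway outside the group were read from lists of their own. The kinases and factors that set eIF2 phosphorylation had 0 of 16 genes past the limma threshold for IL-6 and for each time contrast. At an unadjusted p under 0.05, 2 were higher with IL-6 (3.72% of all genes), EIF2S1, the regulated eIF2 subunit (0.35 ± 0.12, adjusted p = 0.392), and EIF2S2 (0.33 ± 0.15, adjusted p = 0.541). From 6 to 48 h 1 was higher at that level (13.3% of all genes), EIF2AK2, the RNA-activated kinase gene (0.67 ± 0.21, adjusted p = 0.0945). Of 16 ATF4 partners, 3 rose from 6 to 48 h (2.56% of all genes) and 0 fell (1.47%). The 3 were JDP2 at 2.26 ± 0.19, JUND at 1.19 ± 0.15 and CEBPB, a C/EBP partner of ATF4, at 0.99 ± 0.18. Of 19 further genes linked to ATF4, 8 rose (2.56% of all genes) and 0 fell (1.47%) over the same times. The 8 were led by the glycine transporter gene SLC6A9 (2.48 ± 0.41), the growth factor gene VEGFA (1.93 ± 0.22), the pro-apoptotic BBC3 (1.65 ± 0.36) and the cell cycle inhibitor CDKN1A (1.59 ± 0.19). For IL-6 0 genes of these 3 lists passed by limma. At an unadjusted p under 0.05, 3.72% of all genes were higher with IL-6 and 5.33% lower. Of the 16 partners 6 were higher and 1 lower at that level, with BATF3 at 0.63 ± 0.15 (adjusted p = 0.195). Of the 19 further linked genes 3 were higher and 2 lower, with SLC6A9 at 1.62 ± 0.34 (adjusted p = 0.134).

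The cytosolic aminoacyl-tRNA synthetases load amino acids onto tRNA. From 6 to 48 h 10 of 20 rose (2.56% of all genes) and 0 fell (1.47%). CARS1 (1.57 ± 0.15), AARS1 (1.52 ± 0.14), WARS1 (1.504 ± 0.16) and GARS1 (1.33 ± 0.15), for cysteine, alanine, tryptophan and glycine, changed most (limma adjusted p from 0.00111 to 0.00221). For IL-6 0 of 20 passed and 6 were higher and 1 lower at an unadjusted p under 0.05 (3.72% and 5.33% of all genes), with WARS1 at 0.50 ± 0.13 (adjusted p = 0.249) and YARS1 at 0.36 ± 0.10 (adjusted p = 0.302). Their median was 0.13 for IL-6 and 0.55 for 48 h minus 6 h.

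The chaperones and factors of the unfolded protein response of the endoplasmic reticulum held more genes that fell than rose. From 6 to 48 h 6 of 20 fell (1.47% of all genes) and 3 rose (2.56%), with a median of -0.21. CRELD2 (-1.03 ± 0.13), SDF2L1 (-1.01 ± 0.15) and MANF (-0.97 ± 0.16), which encode proteins of the endoplasmic reticulum, fell, while HERPUD1 (1.10 ± 0.14), a gene of protein disposal, rose. For IL-6 0 of 20 passed and 1 was higher at an unadjusted p under 0.05 (3.72% of all genes), with HERPUD1 at 0.37 ± 0.12 (limma adjusted p = 0.355) and EDEM1 at -0.26 ± 0.13 (adjusted p = 0.585).

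Amino acid genes that were not members were counted in the same way. Among all genes tested 2.56% rose and 1.47% fell from 6 to 48 h. Of 14 other serine, glycine and folate genes, 0 rose and 1 fell from 6 to 48 h, GCSH of the glycine cleavage system (-1.14 ± 0.19, limma adjusted p = 0.0119). Of 13 other amino acid enzymes 2 rose, ASS1 (1.94 ± 0.16), which makes argininosuccinate, and BCAT1 (1.47 ± 0.17), a branched-chain transaminase gene. Of 12 other carriers 0 passed in either direction and 4 were higher and 1 lower at an unadjusted p under 0.05 (13.3% and 8.35% of all genes), with SLC1A3 at -0.90 ± 0.23 (adjusted p = 0.0587) and SLC38A9 at 0.60 ± 0.24 (adjusted p = 0.174). Of 15 genes of mTORC1 sensing and autophagy 1 rose, MLST8 (0.90 ± 0.15). For IL-6 0 genes passed in these 4 lists and 3 had an unadjusted p under 0.05, namely SLC1A3 (0.71 ± 0.19, adjusted p = 0.249), ASS1 (0.43 ± 0.13, adjusted p = 0.318) and SESN1, a relative of SESN2 (-0.46 ± 0.15, adjusted p = 0.358). Among all genes 3.72% were higher and 5.33% lower at that level.

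Some marker genes moved along the same time axis. Among the monocyte markers LYZ, the lysozyme gene, fell by 1.78 ± 0.14 on the log2 scale from 6 to 48 h (limma adjusted p = 0.000501) and CSF3R, a cytokine receptor gene, rose by 0.83 ± 0.16 (adjusted p = 0.0204). FCGR1A, an Fc receptor gene, rose with IL-6 by 0.65 ± 0.10 (adjusted p = 0.0329). The medians of the 14 monocyte markers were 0.33 for 48 h minus 6 h and -0.23 for IL-6. NKG7, the 1 tested T and NK cell marker, rose by 1.01 ± 0.18 from 6 to 48 h (adjusted p = 0.0155). Their part in the results above was not tested.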

How the data were processed

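The data are 6 RNA-seq libraries of THP-1 cells. Per the labels' protocols, total RNA was extracted with the RNeasy kit, amplified by SMART-Seq and made into libraries with Nextera XT, which does not mark the strand. The build was GRCh38 (hg38), per the submitters' processing notes; of the aligner, the counting program, the annotation and the normalization, nothing is given in the sources used here. The authors deposited 1 log2 value per gene and library in tables of 60325 rows, titled as a processed signal per the file headers, with each gene's mean at 0 to within 1.8e-07.

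Levels were recovered in an arbitrary unit from whole-number ratios between the libraries (step 0.001) for 90.2% of the 17388 genes with 6 values. Of the others, 1665 were treated as high, and 43 that were tied at their lowest value in 2 or more libraries were treated as low. The 13502 genes whose mean level was 1 or more were fitted with limma 3.58.1 in R 4.3.3 on the deposited log2 values. The model held time and agent (2 residual degrees of freedom, median prior 8.23), with trended robust empirical Bayes and Benjamini-Hochberg adjustment at 0.05. A further model, with 1 residual degree of freedom, tested whether the IL-6 effect changed after 6 h. Single ratios of libraries have no test. As limma shrinks the variances, a standard error may be below what the spread of the 3 pair differences gives. The IL-6 contrast of the main model and the level recovery were run on simulated data. The time contrasts and the further model were not. No read counts were used, so no interval for counting error is given.

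Control and IL-6 libraries were paired by their labelled time, which enters the model as a term.

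The members and lists were chosen with earlier results of these data known. Values in all libraries are given for ATF4 and for the members with the 10 largest absolute estimates for IL-6 or for 24 h minus 6 h, and the other members are given by at least 1 value. In the other lists, the genes past the threshold are named (up to 4 by size), or otherwise the 2 with the smallest p. Promoter windows came from RefSeq (GRCh38.p14) and matched 28 members with 47 windows; EIF4EBP1, GPT2, SLC7A11, PYCR1, NUPR1, ALDH1L2, SHMT2 and PSPH had none there. Gene coordinates are those of the deposited tables. Of the 36 genes, 13 overlap another gene with 6 values, 10 of them on the opposite strand. For 6, another gene bears a related name. These are pseudogenes for ATF4, PSPH and XPOT and protein-coding genes for DDIT4, MTHFD2 and CBS. Alternatives changed the variance trend, the robust fit, the level filter, the scale of the libraries, a pseudocount of 1 on the recovered levels, the libraries used and the time term.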

Additional observations from a re-analysis of the deposited data

How the results depend on the processing

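The direction of the members' medians held in every alternative run, and the counts of calls moved. With no variance trend 0 genes and 0 members passed in any comparison. With non-robust shrinkage the genes and members called were 14 and 0 for IL-6, 159 and 5 for 24 h minus 6 h, 11 and 2 for 48 h minus 24 h, and 304 genes for 48 h minus 6 h; with no level filter they were 13 and 0, 144 and 5, 10 and 2, and 267. With a mean level of at least 5, 9515 genes were tested, among them 32 members. For 24 h minus 6 h 395 genes and 15 members were then called, and for 48 h minus 24 h 135 genes and 8 members. On log2(level + 1), 11837 genes were tested and only 19 members have a level. The members called were 5 for 24 h minus 6 h (257 genes), 12 for 48 h minus 6 h (362 genes) and 2 for 48 h minus 24 h (46 genes). Equal medians gave 207 genes and 4 members for 24 h minus 6 h. In the control arm 6 members rather than 12 were then at least 1.5-fold higher at 24 h than at 6 h, with no share of all genes computed. For the difference of the IL-6 effects, equal medians gave 17 genes and a members' median of 0.43 and quantile normalization 13 genes and 0.25, against 28 and 0.36. With no time term, that is without the replicate block that pairs libraries by time, 4 genes and 0 members were called for IL-6.

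Leaving out 1 pair gave 17 to 124 genes and 0 to 7 members for IL-6. Leaving out 1 library gave 34 to 594 genes and 0 to 15 members for 24 h minus 6 h, 116 to 1189 genes and 16 to 29 members for 48 h minus 6 h, and 8 to 418 genes, 0 to 11 members and members' medians of 0.44 to 0.72 for 48 h minus 24 h. At 2-fold rather than 1.5-fold, the members higher with IL-6 were 0, 7 and 5 at 6, 24 and 48 h (3.41%, 2.74% and 3.52% of all genes). In the control arm 3, 16 and 8 were higher for 24 against 6 h, 48 against 6 h and 48 against 24 h (7.22%, 5.9% and 2.48%), and in the IL-6 arm 11, 25 and 6 (7.05%, 8.44% and 4.51%).

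Among the values of single genes, 854 kept their direction and their side of the threshold under an alternative, 135 lost a call, 29 gained one and 11 changed sign. PPP1R15A went from -0.03 to 0.0023 with equal medians, 0.00017 with quantile normalization, and from -0.37 to 0.16 over the left-out pairs. PHGDH and PCK2 stood at -0.067 and -0.015 with quantile normalization, and over the left-out pairs VLDLR ran from -0.16 to 0.071 and SLC7A1 from -0.034 to 0.085. For 24 h minus 6 h STC2 ran from -0.18 (without the IL-6 library of 6 h) to 2.10 and SLC7A11 from -1.72 to 0.265 (without the control of 24 h). In quantile normalization all genes with no recovered level entered at 1 assigned level. PHGDH, PCK2 and DDIT4 were among them, so their values in that fit depend on it. The causes of these changes were not tested. With 1 library per condition and unknown depth, ratios at a single time have no error of their own.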
